A study of Mus musculus with 6 samples.

Results

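The genes described here encode clotting factors, their inhibitors, proteins of fibrinolysis and complement components, plasma proteins that hepatocytes make in large amounts. They are 38 named genes of the 48432 in the deposited table, taken by symbol, with C5 found under Hc, its mouse symbol. Of these, 21 belong to coagulation and fibrinolysis and 17 to complement. All 38 were measured and passed the filter on low counts. C2 and Cfb carried a failed status in 1 library, Ctl replicate 2, and their counts there were kept.

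RNA from livers of mice aged 10 weeks was sequenced in 2 groups of 3 libraries. The control group, Ctl, has the genotype Albumin-Cre, a transgene that puts Cre recombinase under the albumin promoter, which is active in hepatocytes. The other group, Li-KO, has a liver-specific knockout of Klf15, a transcription factor of the Kruppel-like family. The comparison asks which liver transcripts differ when hepatic Klf15 is lost. The labels name neither the driver of the deletion in Li-KO nor sex or feeding state. They also do not tie each library to a mouse of its own, so the tests measure spread among these libraries, some of which may be technical.

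Clotting is a chain of proteases, each made as an inactive zymogen, that ends in thrombin, which turns fibrinogen into fibrin. Antithrombin, heparin cofactor II and the protein C system hold it back, and plasmin dissolves the fibrin. Complement is set off through the classical, lectin or alternative pathway, and its terminal components assemble into a pore in the target membrane.

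Libraries held 30716763 to 43375781 estimated counts, and the lowest count of any member in any library was 2386, so counting error was small beside the spread between libraries. Klf15 was at 174 to 345 CPM (counts per 1 000 000 of the scaled library total) in Ctl and 41.6 to 54.3 CPM in Li-KO, lower in every knockout library. Hepatocyte markers were abundant, at 22732 to 30715 CPM in Ctl and 23618 to 26825 CPM in Li-KO summed over the 8 of 12 that could be tested. The other 4, Alb, Serpina1a, Cyp2e1 and Ahsg, were skipped in the table. Summed markers overlapped between groups for Kupffer cells (374 to 532 CPM in Ctl and 336 to 509.5 CPM in Li-KO), sinusoidal endothelium (731 to 823 CPM in Ctl and 546 to 917 CPM in Li-KO) and stellate cells (672 to 700.2 CPM in Ctl and 622 to 739.9 CPM in Li-KO). Of these non-hepatocyte lists, 0 of 11 passed by edgeR, 0 by DESeq2 and 1 at an unadjusted edgeR p under 0.05 for Kupffer cells. For endothelium 0 of 10 passed by edgeR, 1 by DESeq2 and 2 at an unadjusted edgeR p under 0.05, and for stellate cells 0 of 10 passed by edgeR, 0 by DESeq2 and 3 at an unadjusted edgeR p under 0.05. Erythroid markers summed to 740.1 to 810.5 CPM in Ctl and 296 to 589 CPM in Li-KO, lower in every Li-KO library, and 0 of 6 passed by edgeR, 3 by DESeq2 and 5 at an unadjusted edgeR p under 0.05. The part of blood RNA in the values below was not tested. In bulk liver, fewer cells of a type and less RNA per cell cannot be told apart.

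The 38 genes together took 4.27, 4.39 and 5.17% of all counts in Ctl replicates 0, 1 and 2, and 4.67, 4.78 and 4.32% in the Li-KO libraries, so the groups overlapped. Values of single libraries are given in this order, replicates 0, 1 and 2 of each group, throughout. On the FPKM scale, fragments per kilobase of transcript and 1 000 000 fragments, levels can be compared between genes. The mean level over the 6 libraries ran from 26.2 FPKM for Pros1, the gene of protein S, to 1648 FPKM for Fga, the alpha chain of fibrinogen. Next below Fga were Fgg at 1426, Serpinc1 (antithrombin) at 1242, Kng1 (kininogen) at 901 and F2 (prothrombin) at 852 FPKM. Next above Pros1 were F11 at 28.1, F7 at 40.4 and C2 at 51.4 FPKM. Complement genes lay in between, up to Cfb at 557 FPKM.

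**Figure D1:**
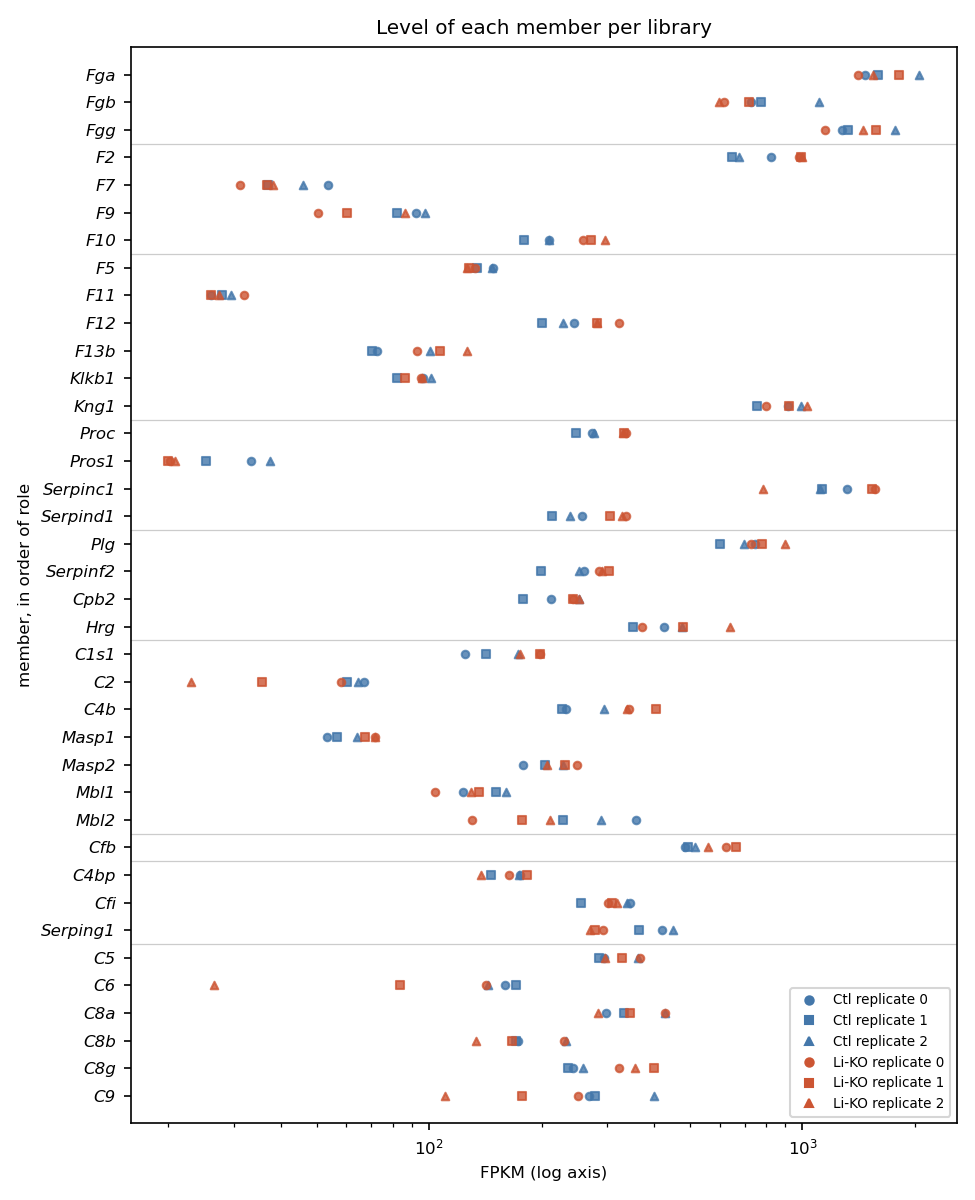
FPKM of each of the 38 members in each of the 6 libraries on a log axis, with members in order of role and lines between role groups. Fga is the highest member on average, at 1648 FPKM, and Pros1 the lowest, at 26.2 FPKM.

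All 38 genes had fitted differences of less than 2-fold between Li-KO and Ctl, of a median size close to that over all genes. C8g, the gamma chain of complement component C8, rose, and Serping1, the C1 inhibitor, fell, at an adjusted p under 0.05 by edgeR's quasi-likelihood test with Benjamini-Hochberg adjustment over all genes. The other 36 did not pass. The 2 of 38 that passed are 5.26%, beside 12% of the 16533 genes tested (1986 genes), and 1 in each direction stood beside 6.11% of all genes higher and 5.90% lower. An unadjusted p under 0.05 was reached by 14 of the 38. The share of all genes that reached it is not given here, so no count at this threshold can show an excess. DESeq2 on the same counts called 12 of them, 31.6%, beside 19.1% of all genes.

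None of the 38 had a fitted difference of 2-fold or more, against 10.3% of all genes tested. Among the 2118 genes whose mean was at least 92.0 CPM, the share was 5.10%. That floor is the mean of F11, the lowest member by CPM. For 34 of the 38 (89.5%) the 95% interval of the fold change lay within 2-fold in both directions, against 56.3% of all genes and 80.6% of those abundant genes. For the other 4, C2, C6, C9 and Mbl2, the interval reached beyond 2-fold on the lower side. The median log2 difference (Li-KO minus Ctl) was 0.03 over the members and -0.01 over all genes, with 21 members fitted above 0 and 17 below. Without its sign, the median log2 difference was 0.35 over the members and 0.34 over all genes.

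In 20 of the 38 (52.6%) the 3 Ctl and 3 Li-KO values did not overlap, 12 higher in Li-KO and 8 lower. Over all genes tested the share was 35.2%, with 17.4% higher and 17.8% lower. Among the genes at least as abundant as the lowest member, 48.1% did not overlap and 21.4% were called. In coagulation and fibrinolysis 0 of 21 passed by edgeR, 6 by DESeq2 and 8 at an unadjusted edgeR p under 0.05. In complement 2 of 17 passed by edgeR, 6 by DESeq2 and 6 at an unadjusted edgeR p under 0.05.

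**Figure D2:**
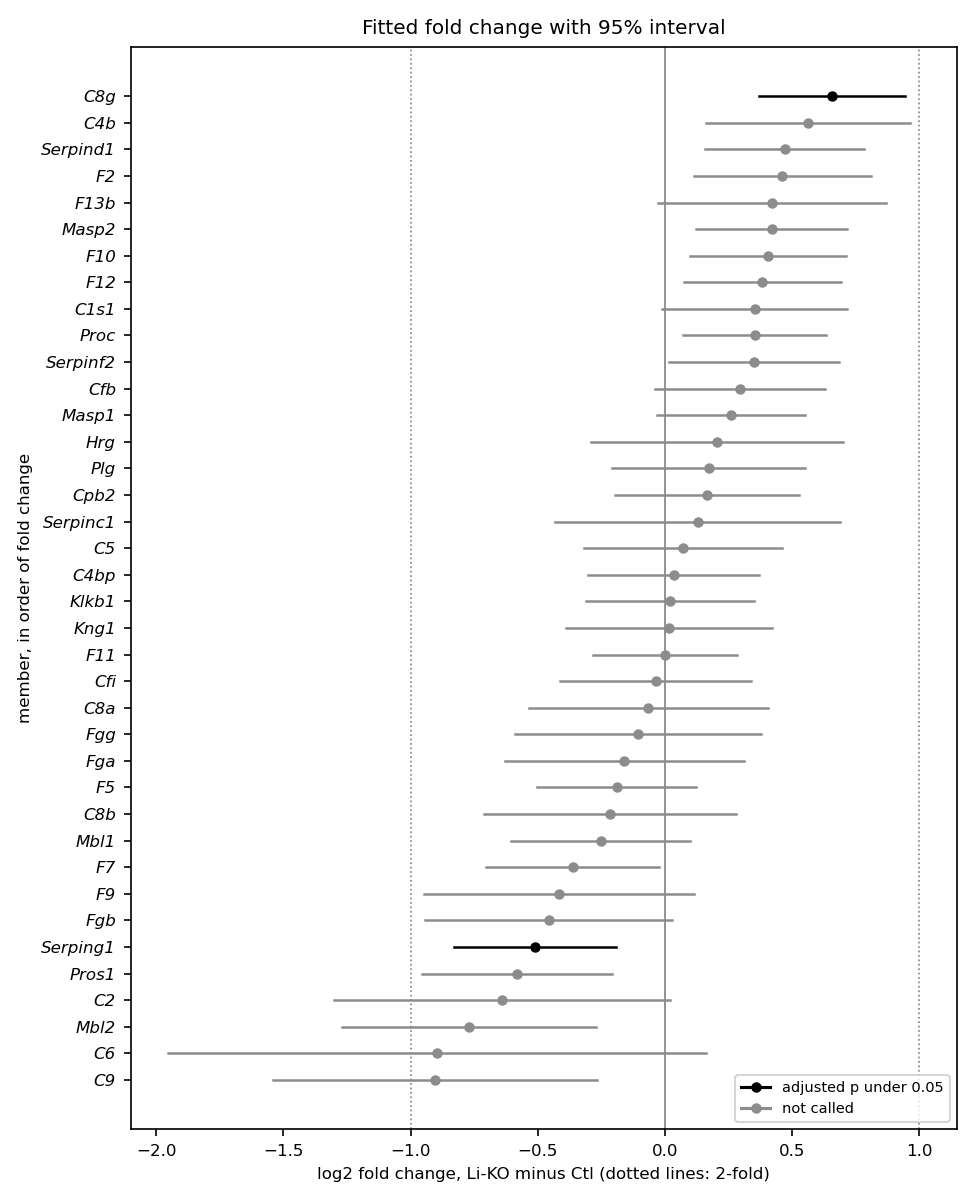
Log2 difference of each member (Li-KO minus Ctl) with its 95% interval, in order of size, with dotted lines at 2-fold. The called members, in black, are C8g at 0.66 and Serping1 at -0.51, and the intervals of C2, C6, C9 and Mbl2 cross the 2-fold line.

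Fibrinogen consists of alpha, beta and gamma chains, whose genes Fga, Fgb and Fgg lie side by side on chromosome 3. The alpha chain gene Fga was at 4589, 5067 and 6734 CPM in Ctl against 4322, 5509 and 4838 CPM in Li-KO. Fgb, the beta chain, was at 4014, 4443 and 6376 CPM in Ctl against 3396, 3961 and 3447 CPM in Li-KO. Fgg, the gamma chain, was at 3001, 3237 and 4453 CPM in Ctl against 2713, 3699 and 3520.4 CPM in Li-KO. Ctl replicate 2 was the highest library for each chain, and only for Fgb were all Li-KO values below all Ctl values. None passed (log2 difference -0.16 ± 0.21, adjusted p 0.651 for Fga, log2 difference -0.46 ± 0.21, adjusted p 0.193 for Fgb, log2 difference -0.11 ± 0.21, adjusted p 0.783 for Fgg, each ± SE). The sign for Fga turned in 1 of 16 alternative fits and for Fgg in 2, and that for Fgb in none. Without Ctl replicate 2 the log2 difference for Fgb was -0.23 (adjusted p 0.499).

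A ratio of chains within a library does not depend on how libraries are scaled. The FPKM ratio of Fgb to Fga was 0.493, 0.488 and 0.538 in Ctl against 0.437, 0.398 and 0.388 in Li-KO. The ratio of Fgb to Fgg was 0.569, 0.585 and 0.625 in Ctl against 0.536, 0.457 and 0.412 in Li-KO. Both were lower in every Li-KO library, with Li-KO means at 0.806 and 0.790 of the Ctl means, whereas Fgg to Fga overlapped at 0.834–0.866 over the Ctl libraries and 0.815–0.942 over the Li-KO libraries. These ratios and those below were chosen after the values were seen and carry no test.

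The DNA before the beta chain gene is shown beside that of the gamma chain gene because their ratio differed between groups. Printed are the 250 bases before the RefSeq start on GRCm38.p6 (mm10), 5′ to 3′ in the direction of transcription, for Fgb at chr3:83049864-83050113 on the minus strand and for Fgg at chr3:83007474-83007723 on the plus strand. Capitals mark 2 motifs searched on both strands: CACCC, a box bound by Kruppel-like factors, and TTGCNNAA, a motif of C/EBP factors.
Fgb: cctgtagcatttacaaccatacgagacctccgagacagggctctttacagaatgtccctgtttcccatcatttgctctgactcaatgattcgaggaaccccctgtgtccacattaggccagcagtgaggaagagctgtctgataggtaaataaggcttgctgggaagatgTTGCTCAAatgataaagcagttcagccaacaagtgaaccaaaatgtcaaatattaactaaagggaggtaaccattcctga
Fgg: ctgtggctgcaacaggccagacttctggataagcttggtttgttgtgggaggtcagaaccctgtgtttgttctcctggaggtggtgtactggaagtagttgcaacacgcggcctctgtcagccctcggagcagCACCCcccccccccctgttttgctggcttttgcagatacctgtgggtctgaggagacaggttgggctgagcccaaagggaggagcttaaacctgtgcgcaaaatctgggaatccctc
Fgb held TTGCNNAA 80 to 73 bases before the start and no CACCC. Fgg held CACCC 117 to 113 bases before the start and no TTGCNNAA. Of 32851 RefSeq windows of this length, 52.0% held CACCC and 9.56% TTGCNNAA. Of the 29 members with a window, 13 held CACCC and 8 TTGCNNAA. No matches overlap in the windows printed, and a match only describes letters.

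Among the zymogens that need vitamin K for carboxylation, values lay on both sides of Ctl, and 0 of 4 passed by edgeR, 2 by DESeq2 and 3 at an unadjusted edgeR p under 0.05. F2, prothrombin, was at 2139.6, 1745 and 1835 CPM in Ctl against 2655, 2644 and 2577 CPM in Li-KO. All Li-KO values were higher and close to each other (log2 difference 0.46 ± 0.15, adjusted p 0.0837). F10, the protease that cuts prothrombin, was at 481, 434 and 535 CPM in Ctl against 609.7, 628 and 679.96 CPM in Li-KO, also without overlap (log2 difference 0.40 ± 0.13, adjusted p 0.0859). F7, the partner of tissue factor, was at 128, 90.2 and 109.6 CPM in Ctl against 76.9, 88.6 and 89.8 CPM in Li-KO. Li-KO lay lower by a narrow gap to Ctl replicate 1 (log2 difference -0.36 ± 0.15, adjusted p 0.147), and on the FPKM scale the groups overlapped. Without Ctl replicate 0 its log2 difference was -0.23 (adjusted p 0.365). F9, on the X chromosome, was at 347, 291 and 355 CPM in Ctl against 181, 214 and 348 CPM in Li-KO. Li-KO replicate 2 lay within the Ctl range and the other Li-KO libraries below it (adjusted p 0.274), and without replicate 2 F9 passed with an adjusted p of 0.0210. With each library left out in turn, its log2 difference ran from -0.75 to -0.22.

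F7 and F10 are neighbours on chromosome 8, on 1 strand with 1498 bases between them, and their fitted differences had opposite signs. The FPKM ratio of F7 to F10 was 0.257, 0.205 and 0.219 in Ctl against 0.121, 0.135 and 0.129 in Li-KO. In Li-KO it stood at 0.565 of the Ctl mean, without overlap. The windows before both starts are shown because the genes share a locus but not a sign, with F7 at chr8:13025784-13026033 on the plus strand and F10 at chr8:13037058-13037307 on the plus strand and the same motifs in capitals.
F7: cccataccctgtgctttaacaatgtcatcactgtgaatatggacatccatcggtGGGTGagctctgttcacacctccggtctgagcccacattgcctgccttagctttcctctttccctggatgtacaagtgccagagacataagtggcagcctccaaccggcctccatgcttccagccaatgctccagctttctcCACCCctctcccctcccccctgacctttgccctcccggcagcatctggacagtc
F10: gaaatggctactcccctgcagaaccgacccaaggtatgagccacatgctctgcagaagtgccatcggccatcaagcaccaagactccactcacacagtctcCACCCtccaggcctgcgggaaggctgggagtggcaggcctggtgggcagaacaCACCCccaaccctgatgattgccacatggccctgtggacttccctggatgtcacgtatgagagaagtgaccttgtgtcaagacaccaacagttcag
F7 held CACCC on the opposite strand 196 to 192 bases and on its own strand 54 to 50 bases before the start. F10 held it 149 to 145 and 96 to 92 bases before the start. Neither held TTGCNNAA.

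Of the cofactor, contact phase and crosslinking genes, 0 of 6 passed by edgeR, 1 by DESeq2 and 1 at an unadjusted edgeR p under 0.05. F5, the cofactor of factor X, was at 1747, 1665 and 1856 CPM in Ctl against 1557, 1509 and 1549.9 CPM in Li-KO, lower without overlap (log2 difference -0.19 ± 0.14, adjusted p 0.395). F12, which starts the contact phase, was at 561, 479.96 and 556 CPM in Ctl against 750.1, 694 and 637 CPM in Li-KO, higher without overlap (log2 difference 0.38 ± 0.14, adjusted p 0.102). F11, Klkb1 (plasma prekallikrein) and Kng1, which act with it, overlapped, with log2 differences of 0.00, 0.02 and 0.02. Their 95% intervals ran from -0.28 to 0.28 for F11, -0.31 to 0.35 for Klkb1 and -0.39 to 0.42 for Kng1. F13b, the carrier chain of the factor that crosslinks fibrin, overlapped at 236 to 340.2 CPM in Ctl and 303 to 448 CPM in Li-KO. Klkb1 shares 43.2% of its exonic bases with the gene model Gm45753 on the same strand, so its counts are uncertain.

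Of the anticoagulants, 3 of 4 had separated groups, and 0 of 4 passed by edgeR, 3 by DESeq2 and 3 at an unadjusted edgeR p under 0.05. The share of separated genes was 35.2% over all genes tested and 48.1% among genes at least as abundant as the lowest member. DESeq2 called 19.1% of all genes, so counts among 4 genes say little. Pros1, protein S, the cofactor of activated protein C, was at 146, 105 and 157 CPM in Ctl against 87.3, 85.7 and 99.4 CPM in Li-KO. All Li-KO values were lower (log2 difference -0.58 ± 0.16, adjusted p 0.0528), and it passed in 5 of 16 alternative fits. Proc, protein C itself, was at 530.4, 491 and 543 CPM in Ctl against 692, 669 and 635 CPM in Li-KO, higher without overlap (log2 difference 0.35 ± 0.12, adjusted p 0.0983). Serpind1, heparin cofactor II, an inhibitor of thrombin, was at 771, 642 and 722 CPM in Ctl against 1020.1, 920.5 and 1016 CPM in Li-KO, also higher without overlap (log2 difference 0.47 ± 0.14, adjusted p 0.0586).

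The FPKM ratio of Pros1 to Proc, cofactor to enzyme, was 0.122, 0.102 and 0.136 in Ctl against 0.0602, 0.0602 and 0.0630 in Li-KO. The Li-KO values were nearly equal, and their mean was 0.510 of the Ctl mean. Serpinc1, antithrombin, was at 2693, 2309 and 2532 CPM in Ctl against 3216, 3273 and 1744 CPM in Li-KO. Li-KO replicate 2 was the lowest of the 6 libraries and the other Li-KO libraries the highest (log2 difference 0.13 ± 0.25, adjusted p 0.774), and over the fits that left out 1 library the log2 difference ran from -0.02 to 0.36. Zbtb37 on the opposite strand overlaps 34.4% of its exonic bases, and no source used here states whether counting used the strand.

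The 4 genes of fibrinolysis and its control were fitted above 0, and 0 of 4 passed by edgeR, 0 by DESeq2 and 1 at an unadjusted edgeR p under 0.05. Serpinf2, alpha-2-antiplasmin, was at 739, 578 and 718 CPM in Ctl against 863, 915 and 816 CPM in Li-KO, without overlap (log2 difference 0.35 ± 0.15, adjusted p 0.153). Plg, plasminogen, was at 2963, 2551 and 3086 CPM in Ctl against 2947, 3131 and 3609 CPM in Li-KO and overlapped (adjusted p 0.535). Cpb2, a carboxypeptidase that trims fibrin and slows its breakdown, and Hrg, histidine-rich glycoprotein, overlapped too, with adjusted p of 0.532 and 0.573. The sign for Hrg turned in 1 of 16 alternative fits.

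**Figure D3:**
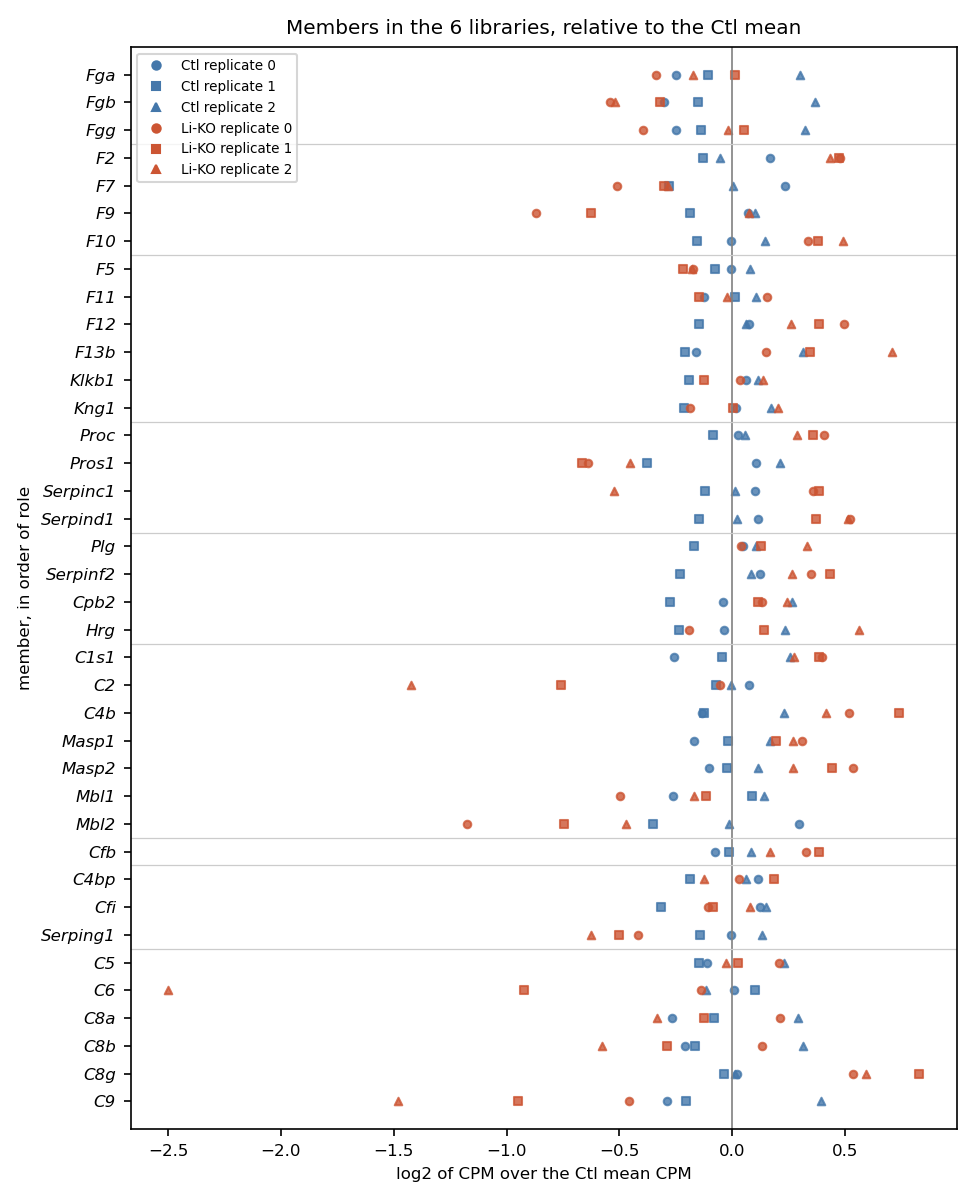
Log2 of each member's CPM over its Ctl mean in the 6 libraries, in order of role, with Ctl in blue and Li-KO in orange. The groups do not overlap in 20 of 38 members, and the widest spread is that of C6 in Li-KO.

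In the classical and lectin pathways 5 of 7 genes had separated groups, 4 higher and 1 lower, and 0 of 7 passed by edgeR, 3 by DESeq2 and 3 at an unadjusted edgeR p under 0.05. Over all genes tested 35.2% were separated and DESeq2 called 19.1%. Of genes at least as abundant as the lowest member, 48.1% were separated. C4b, complement C4, which both pathways cleave, was at 1723, 1729 and 2213 CPM in Ctl against 2706, 3147 and 2516 CPM in Li-KO, higher in every Li-KO library (log2 difference 0.56 ± 0.18, adjusted p 0.0710). Its near-identical copy C4a was at 144 to 281 CPM in Ctl and 32.2 to 306 CPM in Li-KO, and how shared fragments were divided between them is not known here. Masp2, the lectin pathway protease that cleaves C4 and C2, was at 313, 331 and 364 CPM in Ctl against 486, 457 and 404 CPM in Li-KO, higher without overlap (log2 difference 0.42 ± 0.13, adjusted p 0.0714). On the FPKM scale its groups overlapped, at 178 to 229 FPKM in Ctl and 207 to 248 FPKM in Li-KO, and Tardbp on the opposite strand overlaps 54.9% of its exonic bases.

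C1s1, a protease of the C1 complex, was at 536, 619.6 and 765 CPM in Ctl against 842, 835 and 774 CPM in Li-KO (log2 difference 0.35 ± 0.16, adjusted p 0.183). Masp1, a lectin pathway protease, was at 210.01, 234 and 266 CPM in Ctl against 293, 270.2 and 285 CPM in Li-KO (log2 difference 0.26 ± 0.13, adjusted p 0.219). Both were higher in Li-KO by narrow gaps. Mbl2, a mannose-binding lectin that recognises microbial sugars, lay the other way, at 499, 318 and 402 CPM in Ctl against 180.01, 242 and 293 CPM in Li-KO. All Li-KO values were below all Ctl values (log2 difference -0.77 ± 0.22, adjusted p 0.0543), and it passed in 5 of 16 alternative fits. Mbl1, the other mannose-binding lectin of the mouse, overlapped at 140.1 to 186 CPM in Ctl and 119 to 155 CPM in Li-KO (adjusted p 0.318).

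C2, the zymogen that binds C4b, was at 236, 214 and 223 CPM in Ctl against 216, 133 and 83.8 CPM in Li-KO. Li-KO replicate 0 lay at the Ctl level and the other Li-KO libraries well below it, so the groups overlapped in CPM (log2 difference -0.64 ± 0.29, adjusted p 0.181), though not in FPKM. Without Li-KO replicate 0 the log2 difference was -1.03 with an adjusted p of 0.0270, and without Li-KO replicate 2 it was -0.37 with an adjusted p of 0.253. Cfb, factor B, is the counterpart of C2 in the alternative pathway and its neighbour on chromosome 17, with 85 bases between them. Cfb was at 1634, 1705 and 1824 CPM in Ctl against 2158, 2244 and 1934 CPM in Li-KO, higher without overlap (log2 difference 0.30 ± 0.15, adjusted p 0.219).

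The FPKM ratio of C2 to Cfb was 0.138, 0.122 and 0.125 in Ctl against 0.0927, 0.0541 and 0.0413 in Li-KO. It was lower in each Li-KO library, at 0.489 of the Ctl mean, and at 0.482 without Ctl replicate 2, the library with the failed status. A read-through gene model, Gm20547, shares 42.8% of the exonic bases of C2 and 79.5% of those of Cfb, so how fragments were divided between them is uncertain.

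Of the complement inhibitors, Serping1 fell. It was at 966, 879 and 1064 CPM in Ctl against 727, 685 and 629 CPM in Li-KO. Every Li-KO library was below every Ctl library, with means of 969 ± 92.5 and 680.2 ± 49.1 CPM (SD, n = 3; log2 difference -0.51 ± 0.14, adjusted p 0.0490 by edgeR). The call ended in each of 6 fits without 1 library, with adjusted p of 0.0710 to 0.160, while the log2 difference stayed between -0.56 and -0.44. C1 inhibitor blocks C1s, plasma kallikrein and factor XIIa, and so serves both cascades. The FPKM ratio of Serping1 to C1s1 was 3.38, 2.57 and 2.60 in Ctl against 1.47, 1.40 and 1.54 in Li-KO, without overlap and at 0.516 of the Ctl mean. C4bp, a cofactor in the breakdown of C4b, and Cfi, the protease that breaks it down, overlapped, with log2 differences of 0.03 (95% interval -0.30 to 0.37) and -0.04 (-0.41 to 0.34).

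In the terminal pathway, C8g rose. It was at 229, 219.7 and 228 CPM in Ctl against 326, 400.4 and 339 CPM in Li-KO. The Ctl libraries were nearly equal and all Li-KO libraries higher, with means of 225 ± 4.92 and 355 ± 39.7 CPM (SD, n = 3; log2 difference 0.66 ± 0.13, adjusted p 0.0166 by edgeR). The call ended without Ctl replicate 1, Ctl replicate 2 or Li-KO replicate 1, with adjusted p of 0.0745, 0.0625 and 0.0795. Over all 6 such fits the log2 difference stayed between 0.56 and 0.74.

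C8 is a complex of alpha, beta and gamma chains, and the other chain genes did not pass. C8a was at 1428, 1626 and 2100.5 CPM in Ctl against 1987, 1574 and 1364 CPM in Li-KO. C8b was at 561, 578 and 805 CPM in Ctl against 709.8, 529.6 and 434 CPM in Li-KO. Both overlapped (adjusted p 0.869 and 0.552), and Li-KO replicate 0 was the highest Li-KO library for each and the lowest for C8g. C8g lies on chromosome 2, and C8a and C8b are neighbours on chromosome 4. The FPKM ratio of C8b to C8a overlapped at 0.514–0.579 over the Ctl libraries and 0.473–0.539 over the Li-KO libraries. The ratio of C8g to C8a was 0.813, 0.711 and 0.605 in Ctl against 0.754, 1.16 and 1.26 in Li-KO, overlapping through Li-KO replicate 0, although by estimated counts it did not overlap.

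The windows before C8g, at chr2:25501720-25501969 on the minus strand, and C8a, at chr4:104876399-104876648 on the minus strand, are shown for a chain gene that rose and one that did not pass, searched for the same motifs.
C8g: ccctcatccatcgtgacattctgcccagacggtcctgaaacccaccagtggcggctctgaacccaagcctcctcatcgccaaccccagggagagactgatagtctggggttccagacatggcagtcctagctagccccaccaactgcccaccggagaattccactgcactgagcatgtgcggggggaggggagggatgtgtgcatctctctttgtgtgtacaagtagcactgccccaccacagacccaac
C8a: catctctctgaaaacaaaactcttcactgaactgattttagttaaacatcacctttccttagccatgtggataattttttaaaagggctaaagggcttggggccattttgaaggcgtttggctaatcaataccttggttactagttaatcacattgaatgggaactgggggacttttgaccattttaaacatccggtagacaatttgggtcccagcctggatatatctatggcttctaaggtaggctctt
Neither window held either motif, so no letters are in capitals. C8g has a further RefSeq start, not shown.

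C6 and C9, which join the pore before and after C8 and both lie on chromosome 15, had the lowest fitted differences of the 38. C9 was at 804, 852 and 1288 CPM in Ctl against 715, 508 and 352 CPM in Li-KO, without overlap (log2 difference -0.90 ± 0.28, adjusted p 0.0693). C6 was at 624, 664 and 571 CPM in Ctl against 562, 327 and 109.5 CPM in Li-KO. The Li-KO libraries ran from just under the Ctl range in replicate 0 to far below it in replicate 2, the widest spread of any member (coefficient of variation 68.0%, against 7.48% in Ctl), and C6 did not pass (log2 difference -0.90 ± 0.46, adjusted p 0.237). Without Li-KO replicate 0, C9 passed at -1.17 (adjusted p 0.0371) and C6 did not, at -1.48 (adjusted p 0.0636). Without Li-KO replicate 2 neither passed, at -0.69 for C9 (adjusted p 0.109) and -0.48 for C6 (adjusted p 0.193). C5, whose cleavage starts the terminal pathway, overlapped at 2280.3 to 2961 CPM in Ctl and 2476 to 2914 CPM in Li-KO, with a log2 difference of 0.07 (95% interval -0.32 to 0.46).

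**Figure D4:**
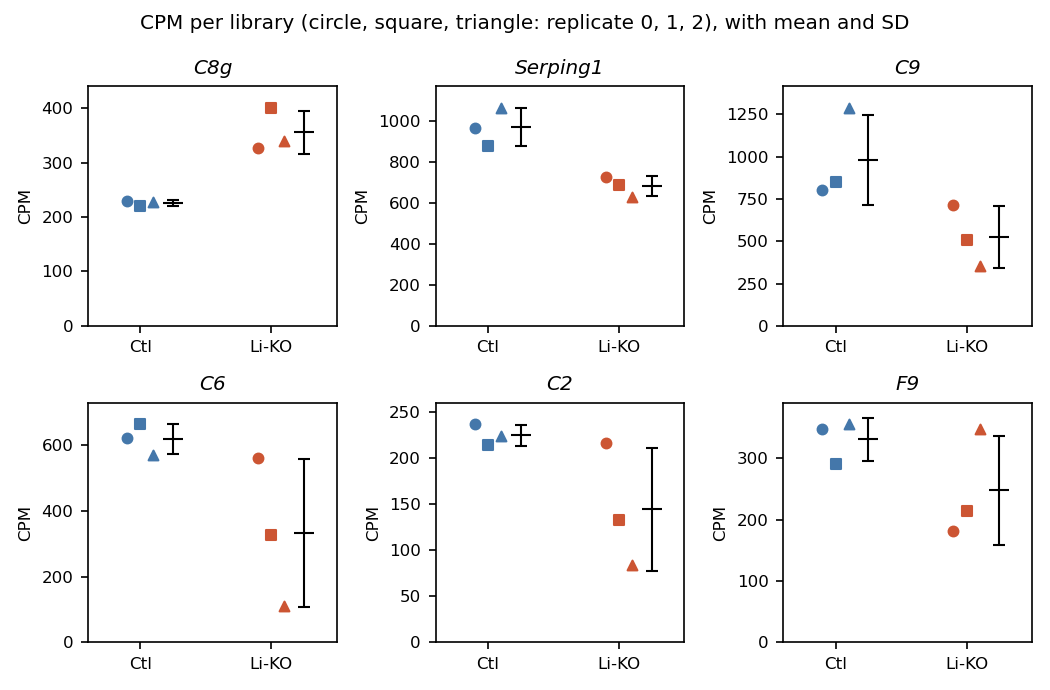
CPM of C8g, Serping1, C9, C6, C2 and F9 in each library, with the mean and SD of each group (n = 3). C8g and Serping1 are the called members, and in C6 and C2 the Li-KO libraries run from near the Ctl level in replicate 0 down to replicate 2.

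By rank alone, a single library was the highest, and another the lowest, for more members in Ctl than in Li-KO. Li-KO replicate 2 was the lowest Li-KO library for 17 members, among them C2, C6, C9 and Serpinc1, and the highest for 12, among them F9, Hrg and F13b. Li-KO replicate 0 was the lowest for 14 and the highest for 16, and replicate 1 the lowest for 7 and the highest for 10. In Ctl, replicate 2 was the highest library for 27 members and replicate 1 the lowest for 24. The median coefficient of variation of a member was 12.3% in Ctl and 9.90% in Li-KO, and it was higher in Li-KO for 14 of the 38. The largest, however, were in Li-KO, at 68.0% for C6, 46.4% for C2, 35.7% for F9, 34.7% for C9 and 31.6% for Serpinc1. In Ctl the largest was 27.2%, for C9.

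**Figure D5:**
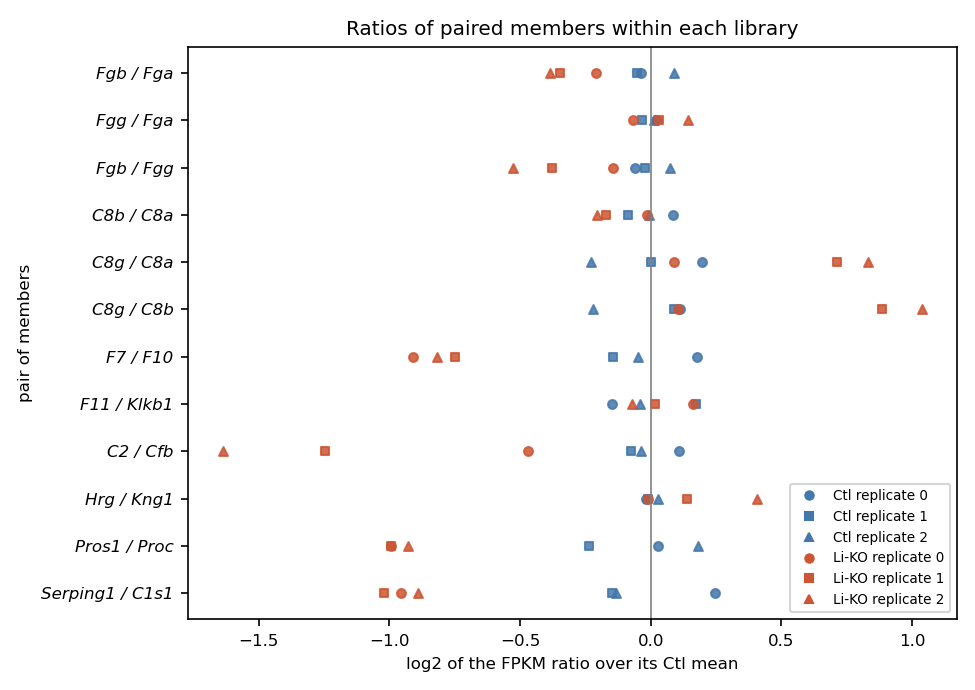
Log2 of the FPKM ratio of 12 pairs of members within each library, over the Ctl mean of that ratio. Li-KO libraries lie below all Ctl libraries for Fgb to Fga, Fgb to Fgg, F7 to F10, C2 to Cfb, Pros1 to Proc and Serping1 to C1s1, and overlap them for the other 6 pairs.

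Of the other neighbouring pairs, F11 and Klkb1 on chromosome 8 had a ratio of 0.271–0.338 over the Ctl libraries and 0.286–0.335 over the Li-KO libraries, and Hrg and Kng1 on chromosome 16 one of 0.465–0.480 over the Ctl libraries and 0.467–0.624 over the Li-KO libraries. Both overlapped, unlike F7 to F10 and C2 to Cfb.

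A list of 63 other coagulation and complement genes, with receptors, activators and vitamin K enzymes, had 57 tested. Of these 2 rose and 3 fell by edgeR, 8.77% of those tested, beside 12% of all genes, so the list held no excess of calls. DESeq2 called 11 of the 57, beside 19.1% of all genes. The genes named below were picked because they were called. Serpina10, an inhibitor of activated factor X, rose from 284 ± 23.3 to 390.3 ± 23.3 CPM (SD, n = 3), and Gas6, a vitamin K dependent ligand of receptor kinases, from 47.0 ± 9.38 to 84.9 ± 22.1 CPM. Among those that fell, Cpn2, a subunit of the carboxypeptidase that inactivates C3a and C5a, went from 685 ± 54.5 to 482 ± 24.7 CPM, and Vkorc1l1, a paralog of the vitamin K reductase, from 74.8 ± 3.47 to 55.1 ± 3.51 CPM. The vitamin K enzymes Ggcx and Vkorc1 did not pass (adjusted p 0.837 and 0.411). C7, which joins the pore after C6, was at 3.02 to 4.40 CPM in Ctl and 1.64 to 2.79 CPM in Li-KO and did not pass (adjusted p 0.0870), and C3 was skipped in the table.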

How the data were processed

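Total RNA of 6 liver libraries, 3 Ctl and 3 Li-KO, was sequenced with a stranded kit, per the labels. The submitters' processing notes name STAR, Cufflinks, Cuffdiff and mm10, with no options. The deposited table holds the authors' estimated counts, which are not scaled, and their FPKM, per the file headers. Its conditions WT and KO were read as Ctl and Li-KO, with replicate numbers as in the titles, leaving 0 rows without a sample. Cuffdiff skipped 77 genes, listed at 0, and these were left out. Symbols were found for 48051 of 48432 gene IDs.

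Counts were rounded, filtered with filterByExpr (minimum count 10, minimum total 15), scaled by TMM and tested over 16533 genes with edgeR 4.0.16 (two-sided quasi-likelihood test, group as the only term, Benjamini-Hochberg adjustment, threshold 0.05). The SE was derived from the log2 difference and F, and the 95% interval from the SE and the t distribution. The fit was tested on simulated data, with the same spread set for every gene and changes of 2-fold or more. Changes as small as those of the members were not simulated. Alternatives were DESeq2 1.42.0, limma 3.58.1 (voom, and log2 FPKM with a pseudocount of 1 or 0.1), other scalings, no filter, a replicate block, failed genes left out and each library left out. Gene positions come from GENCODE, promoters from RefSeq, which held 29 of 38 members.

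All members were accounted for, with every library's value for those called, separated or with a failed status, and other pathway genes were named where called, except that some results are not reported here. Values given for further members (such as F9, Fga, Fgg, C8a, C8b, Serpinc1, Plg, C7, Ggcx and Vkorc1) were chosen after they were seen. The members and lists were chosen with earlier results of these data known.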

Additional observations from a re-analysis of the deposited data

How the results depend on the processing

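Against 1 member higher and 1 lower, edgeR with DESeq2 size factors called 0 lower, library totals alone 2 higher and 3 lower, no count filter 3 lower, DESeq2 8 higher and 4 lower, and voom 2 higher and 2 lower. By limma on log2 FPKM, a pseudocount of 0.1 gave 0 higher and 0 lower, and all genes with a pseudocount of 1 gave 2 higher. Leaving out 1 library gave 0 to 2 higher and 0 to 2 lower. Over all genes, 1010 higher and 976 lower became 1603 and 1555 with DESeq2, 568 and 595 by limma with a pseudocount of 1, 149 and 280 with 0.1, 614 higher over all genes, and 198 to 1102 higher and 234 to 1447 lower with 1 library left out, fewest without Ctl replicate 1. C8g was called in 12 of 16 alternatives and Serping1 in 6 of 16. Of 334 values of the 21 members that were called, separated or of failed status, 0 changed sign, 14 lost a call and 25 gained one, and the cause was not tested. Groups that do not overlap keep their sign when a library is left out, so the 0 follows largely from how these members were chosen. Among the other members, the sign turned in up to 10 of 16 alternatives (F11), and in 0 for some, such as F9 and Plg. All 84 ratios recomputed, by counts (an alternative chosen after seeing the data) or without 1 library, stayed within the spread between libraries. Leaving out 1 of 3 libraries can hardly move a ratio by more than that spread, so those fits do not test the ratios. With at least 2386 counts per library, counting error was small for these genes.

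Deviations from the group means correlated only weakly between libraries of the same replicate number, at 0.0183, 0.0813 and 0.0669. Between different numbers they correlated at -0.113 to 0.0374. These values do not settle whether the numbers pair the libraries. With the replicate block, 956 genes were higher and 1015 lower, and C8g and Pros1 were called (Serping1 adjusted p = 0.0576 by edgeR).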

Other observations

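Liver transcription factors and acute phase genes were measured beside the plasma protein genes. Of 18 transcription factors tested, Creb3l3, a membrane-bound factor of the liver, rose from a mean of 295 to 544 CPM (log2 difference 0.88, edgeR adjusted p = 0.00801). Of 22 acute phase genes tested, Lcn2, lipocalin 2, rose from 8.26 to 74.7 CPM (3.18, adjusted p = 0.00603), and 0 fell. An unadjusted p under 0.05 was reached by 5 of the transcription factors and 3 of the acute phase genes, and DESeq2 called 3 and 2 of them.

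Of 6 cholangiocyte markers Sox9 fell, from 14.7 to 2.82 CPM. The other 5 did not pass and were fitted above 0, with log2 differences of 0.77 for Krt19, 0.17 for Krt7, 0.96 for Epcam, 1.36 for Spp1 and 0.82 for Cftr, and the median of the list was 0.79. By DESeq2 2 of the 6 passed, beside 19.1% of all genes, and 3 had an unadjusted edgeR p under 0.05. Their sum, most of it Spp1, was 33.5 to 63.8 CPM in Ctl and 48.0 to 152 CPM in Li-KO. Of 5 lymphocyte, 3 neutrophil and 3 platelet markers tested, 0 were called by edgeR, 0 by DESeq2, and 0 had an unadjusted p under 0.05. Among 8 hepatocyte markers tested, Tdo2, a tryptophan-degrading enzyme, fell from 2325 to 526 CPM and Asgr2, a chain of the asialoglycoprotein receptor, rose from 173 to 259.9 CPM.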
